A study of Mus musculus with 42 samples.

Results

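Foxa2, Noto, Foxj1, Sox17, Hhex, Gsc, Chrd and Nog are genes of the node, the notochord and the definitive endoderm of the mouse embryo. They were taken by gene symbol, and all 8 were present among the 12988 genes of the expression table. Their methylation was read from the tiles, stretches of 100 bases, that overlapped each gene or lay within 2 kb of either end: 89 of the 141251 tiles of the methylation table. The study asked how exposure of fathers to the phthalate plasticizer DEHP before conception bears on sperm methylation and on the early embryo. Wild-type C57BL/6J males, 8 weeks old at the start, received vehicle (control), a low dose of 2.5 mg/kg per day or a high dose of 25 mg/kg per day for 67 days. They were then mated with females that had not been exposed. The offspring, labelled wild type, male and C57BL/6 * DBA/2J, were collected at embryonic day 7.5, during gastrulation, and none was dosed itself.

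The expression table held RNA-seq values of 2 libraries per dose group in CPM, a count scaled to the size of the library, and the methylation table held reduced representation bisulfite sequencing values of 3 libraries per dose group in percent methylated. The columns of both tables name a dose group and a number but no tissue. The labels list 2 embryonic and 2 extra-embryonic RNA samples per group, and 4 sperm, 3 embryonic and 3 extra-embryonic bisulfite samples, so the 3 methylation columns per group match the number of embryonic or of extra-embryonic samples and not that of sperm. The epiblast genes Pou5f1 (357 to 541 CPM) and Dnmt3b (940 to 1519 CPM) and the streak and notochord gene T (204 to 287 CPM) were abundant in every expression library. The names of the columns give no tissue, and none was assigned to them. Nothing in the labels says that libraries of a group came from separate fathers or litters, so the p-values measure only the spread between these libraries. A library is a bulk sample, in which fewer cells of a type and less RNA per cell cannot be told apart.

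The node is a small organizing structure at the tip of the primitive streak, and the notochord that grows from it lies along the midline. Foxa2 acts high in the programme of both and of the endoderm, and Noto and Foxj1 drive the making of motile cilia in node cells. Sox17 and Hhex mark the endoderm that will form the gut. Foxa2, Sox17 and Hhex are also expressed in visceral endoderm, and Sox17 and Hhex in endothelium. Their level in a bulk sample is thus not that of node or definitive endoderm alone. Gsc is a classical organizer transcription factor, and Chrd and Nog encode secreted proteins that bind BMP ligands and keep them from their receptors.

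Each CPM column consisted of whole multiples of 1 step, and 100% of the values were whole within 0.01 of a step. A step was 0.00650 and 0.00611 CPM in the high dose libraries and 0.00515 to 0.00538 CPM in the other libraries. If a step is a read, the high dose libraries were the shallowest. The scarcest value among the 8 genes, Nog in low dose library 1, stood on 285 steps. Counting error at that value would be 5.92% if a step is a read, well below the differences between libraries of one group for that gene. Between 27.9% and 29.8% of each column's sum lay in lines that name no gene. Markers of the tissues around the node were present in every library. The 15 visceral endoderm markers, highest for Apob, summed to 1415 CPM in control library 2 and 2878 CPM in control library 1, 2264 to 2590 CPM at the low dose and 2333 to 3119 CPM at the high dose. The 7 epiblast markers summed to 1796 to 2124, 1843 to 2352 and 1455 to 1685 CPM in the same order. Of the trophoblast markers, 8 of 10 were in the table, without the defining gene Elf5, and summed to 102 to 136, 128 to 153 and 140 to 172 CPM.

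None of the 8 genes changed between any pair of dose groups by limma at a Benjamini-Hochberg adjusted p under 0.05. At an unadjusted p under 0.05, 1 gene differed at the low dose against control (Nog, lower), 1 at the high dose against control (Foxa2, lower), and 2 at the high against the low dose (Chrd lower, Nog higher). Over all 12987 genes tested, the shares past the adjusted threshold were 0%, 0.0077% and 0% in these comparisons, and the shares past the unadjusted one were 4.87%, 5.29% and 7.91%. By direction these were 1.9% higher and 2.97% lower at the low dose, 3.65% and 1.64% at the high dose, and 5.69% and 2.22% between the doses. The median difference of the 8 genes on the log2(CPM + 1) scale was -0.07, -0.24 and -0.20, beside 0.0025, 0.02 and 0.015 for all genes. At the high dose 7 of the 8 were lower than in the controls, where 41.4% of all genes were lower. High dose library 2 was the lowest of the 6 libraries for 6 of the 8 genes and the highest for none, while it was the lowest for 16.7% and the highest for 24.5% of all genes. Without that library, with the lone remaining high dose library assumed to vary like the other groups, 5 of 8 were lower than control and the median was -0.06. The same library had the highest summed visceral endoderm markers and the lowest summed epiblast markers of the 6, and their part in the result was not tested.

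**Figure D1:**
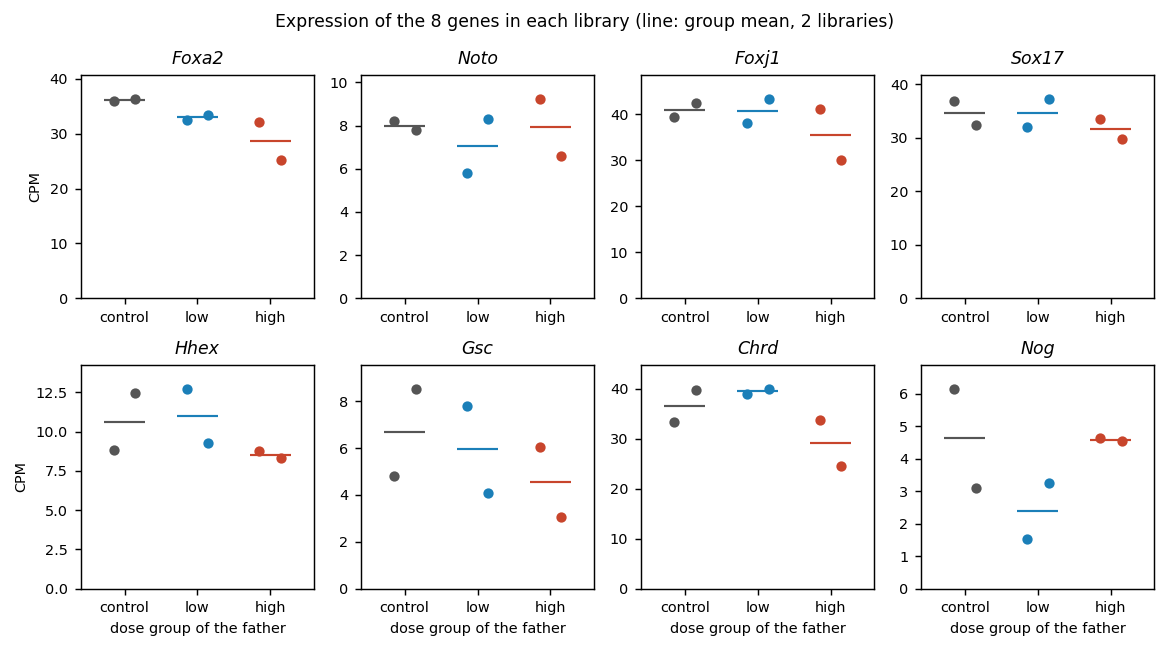
CPM (vertical axes, from 0) of each of the 8 genes in the 2 libraries of each dose group (points) with the group mean (lines). The lowest point lies in the high dose group for Foxa2, Foxj1, Sox17, Hhex, Gsc and Chrd, and in the low dose group for Noto and Nog.

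Foxa2, the forkhead factor needed to form the node and notochord, was at 35.95 and 36.43 CPM in the controls, 32.5 and 33.5 at the low dose, and 32.2 and 25.2 at the high dose. The 3 groups did not overlap and their means fell in the order of dose, from 36.2 ± 0.34 to 32.98 ± 0.69 and 28.7 ± 4.97 CPM (SD, n = 2), although the upper high dose library lay only just below the lower low dose one. The high dose difference from control was -0.33 on the log2(CPM + 1) scale (SE 0.11, 95% interval -0.59 to -0.08), which did not pass in limma after Benjamini-Hochberg adjustment over all genes (adjusted p = 0.866). Without high dose library 2 that difference was -0.16. The low dose difference was -0.13 (95% interval -0.38 to 0.12), an interval that as a ratio runs from 0.77 to 1.09. Groups that do not overlap are common with 2 libraries each: at the high dose 23.5% of all genes lay wholly above and 12.1% wholly below the controls, against 0 and 2 of the 8 genes (Foxa2 and Hhex).

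Noto, the homeobox gene that marks the node and controls its ciliated cells, was at 8.20 and 7.78 CPM in the controls, 5.81 and 8.31 at the low dose, and 9.25 and 6.60 at the high dose. The exposed libraries lay on both sides of the controls at either dose. The differences from control were -0.18 (95% interval -0.60 to 0.25) at the low dose and -0.03 (-0.46 to 0.40) at the high dose. Foxj1, the master regulator of motile cilia, was at 39.3 and 42.4 CPM in the controls, 37.97 and 43.36 at the low dose, and 41.10 and 29.96 at the high dose. Only high dose library 2 lay below the other five, and the high dose difference from control of -0.21 (95% interval -0.54 to 0.12) became 0.009 without it.

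Sox17, the factor that commits cells to endoderm, was at 36.9 and 32.3 CPM in the controls, 32.02 and 37.30 at the low dose, and 33.6 and 29.7 at the high dose. Its highest value was 1.26 times its lowest, the narrowest spread of the 8 genes, and its intervals were the narrowest too: -0.24 to 0.24 at the low dose and -0.37 to 0.12 at the high dose against control. Hhex, a homeobox factor of the anterior endoderm that is also made in the anterior visceral endoderm, was at 8.80 and 12.5 CPM in the controls, 12.7 and 9.27 at the low dose, and 8.75 and 8.32 at the high dose. Both high dose libraries lay below the other four, but the lower control lay only just above them. The difference from control was -0.27 (95% interval -0.69 to 0.15, limma with Benjamini-Hochberg, adjusted p = 0.866), and -0.04 without control library 2.

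Gsc, the organizer homeobox gene, was at 4.81 and 8.53 CPM in the controls, 7.81 and 4.08 at the low dose, and 6.02 and 3.07 at the high dose. Each group held a high and a low library, and all 3 groups overlapped. With a ratio of 2.78 between its highest and lowest library, its intervals were wide: the high dose difference from control was -0.48 with a 95% interval of -1.31 to 0.36, and it was -0.083 without high dose library 2.

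Chrd, encoding the BMP antagonist chordin, was at 33.3 and 39.9 CPM in the controls, 39.02 and 40.05 at the low dose, and 33.7 and 24.5 at the high dose. The high dose libraries lay below both low dose libraries, and 1 of them was above the lower control. The difference of the high from the low dose was -0.45 (SE 0.15, 95% interval -0.79 to -0.11), which did not pass in limma after Benjamini-Hochberg adjustment (adjusted p = 0.454), and it was -0.22 without high dose library 2. Against control the high dose difference was -0.33 (95% interval -0.67 to 0.0069), and -0.11 without the same library. Nog, encoding the antagonist noggin, was at 6.16 and 3.10 CPM in the controls, 1.53 and 3.26 at the low dose, and 4.63 and 4.55 at the high dose. The controls differed from each other by more than any pair of group means did, and the low dose mean of 2.39 ± 1.22 CPM (SD, n = 2) was the lowest. Nog was higher at the high than at the low dose by 0.77 (SE 0.30, 95% interval 0.07 to 1.47, limma with Benjamini-Hochberg, adjusted p = 0.570), and its low dose difference from control was -0.72 (-1.43 to -0.02, adjusted p = 0.928). Without low dose library 1 the difference between the doses was 0.39, and without control library 1 the low dose difference from control was -0.32. The antagonist genes thus stood in opposite directions between the doses, each short of the adjusted threshold. Between the doses 1 of the 8 genes lay wholly higher and 3 wholly lower at the high dose, where 21.8% and 11.8% of all genes did. At the low dose against control, 0 lay wholly higher and 1 (Foxa2) wholly lower, where 18% and 17.2% of all genes did.

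**Figure D2:**
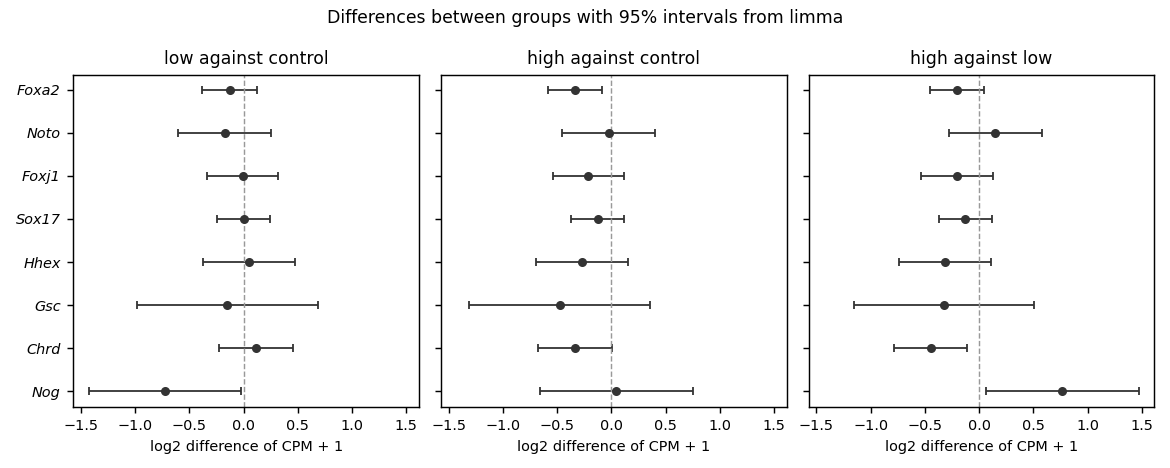
Difference of log2(CPM + 1) between dose groups (horizontal axes) for each of the 8 genes, with 95% intervals from limma as bars and 0 as the dashed line. Intervals leave out 0 for Nog at the low dose, Foxa2 at the high dose against control, and Chrd and Nog between the doses, before any adjustment for the number of genes.

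By the root mean square difference of centred log2(CPM + 1) over the 6 libraries, the genes most like each of the 8 were Oas3 (0.052) and Lbh (0.054) for Foxa2, 1110017D15Rik (0.050) and Rtl8c (0.054) for Noto, and Olig1 (0.057) and Cox6b2 (0.067) for Foxj1. For Sox17 they were Ssc4d (0.020) and Grip2 (0.029), and for Hhex they were Otx2 (0.038) and Cdc42ep3 (0.049). Otx2 was at 82.1 and 108.5 CPM in the controls, 109.98 and 82.4 at the low dose, and 75.6 and 72.0 at the high dose, and thus rose and fell with Hhex library by library. For Gsc the nearest were Mmp25 (0.145) and Pmepa1 (0.171), for Chrd Kcnh6 (0.076) and Fzd8 (0.077), and for Nog Wnt3a (0.086) and Abca1 (0.112). Wnt3a was at 16.5 and 9.77 CPM in the controls, 6.46 and 10.7 at the low dose, and 15.1 and 14.3 at the high dose, with its lowest value in low dose library 1 as for Nog. All these nearest genes were picked for their pattern over 6 libraries from all genes tested. Their likeness follows from that choice, and a link between them and the 8 genes was not tested.

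Other genes of the node, the notochord and the left-right signals around the node were taken from a list of 16, of which 15 were in the table and Gdf1 was not. None passed in any comparison by limma after adjustment. At an unadjusted p under 0.05, 0 were higher and 2 lower at the low dose against control, and 0 and 0 at the high dose against control. At the high against the low dose 5 were higher and 0 lower. The shares of all genes, higher and lower, were 1.9% and 2.97%, 3.65% and 1.64%, and 5.69% and 2.22% in the same order. Shh, the signal secreted by the notochord, was at 2.90 and 2.63 CPM in the controls, 0.414 and 1.57 at the low dose, and 4.25 and 3.91 at the high dose. Its 3 groups did not overlap, with the low dose lowest and the high dose highest. The difference was -0.98 (SE 0.25) at the low dose against control and 1.41 (SE 0.25) between the doses, with limma's Benjamini-Hochberg adjusted p of 0.928 and 0.233. Sox9, a factor of the notochord and other midline cells, was at 10.7 and 8.71 CPM in the controls, 6.33 and 8.35 at the low dose, and 10.1 and 10.6 at the high dose. Dand5, the Nodal antagonist of the node's crown cells, was at 1.86 and 1.55 CPM in the controls, 1.30 and 1.57 at the low dose, and 2.05 and 2.55 at the high dose. Lefty1, a midline inhibitor of Nodal that is also made in the anterior visceral endoderm, was at 3.17 and 4.07 CPM in the controls, 3.50 and 1.10 at the low dose, and 2.55 and 0.764 at the high dose. The median of the 15 genes was -0.16 at the low dose against control, 0.02 at the high dose against control and 0.11 between the doses.

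Of 29 genes of motile cilia, which node cells use to set up leftward flow, 25 were in the table. At the low dose all 25 measured had a lower mean than in the controls, as did 49.0% of all genes. Their median was -0.19 beside 0.0025 for all genes, and none passed in limma after adjustment. Before adjustment, 3 were lower and 0 higher there at p under 0.05, where 2.97% and 1.9% of all genes were. At the high dose against control 1 was lower and 0 higher, beside 1.64% and 3.65% of all genes. Between the doses 4 were higher and 0 lower, beside 5.69% and 2.22%. Foxj1, which is not on that list, stood at -0.009 at the low dose against control. Between the doses 23 were higher and 2 lower at the high dose (median 0.10), and at the high dose against control 8 were higher and 17 lower (median -0.08). Low dose library 1 carried much of this: without it 21 of 25 were still lower than control, but with a median of -0.06, and 13 of 25 were lower at the high than at the low dose. That library had the highest summed endothelium (120 CPM) and epiblast (2352 CPM) markers of the 6 libraries. Its visceral endoderm (2264 CPM) and trophoblast (153 CPM) sums lay within the range of the others. Markers of other tissues moved in the same comparisons. Of the 7 parietal endoderm markers, 6 were lower at the low dose than in the controls (median -0.69) and 6 were higher at the high than at the low dose (median 0.65), and 15 of 15 visceral endoderm markers were higher at the low dose than in the controls (median 0.37). The parietal endoderm markers summed to 1500 CPM in control library 1, 583 in control library 2, 581 to 608 at the low dose and 906 to 943 at the high dose. The visceral endoderm markers summed to 2878 and 1415 CPM in the same control libraries and 2264 to 2590 at the low dose. In both sums control library 1 lay above both low dose libraries. Of the visceral endoderm markers, 4 lay wholly above the controls at the low dose, where 18% of all genes did. None of these markers passed, and their part in the values of the cilia genes was not tested. Hydin, encoding a protein of the axoneme's central pair, was at 1.37 and 1.63 CPM in the controls, 0.667 and 0.974 at the low dose, and 1.40 and 1.21 at the high dose. Dnah5, an outer dynein arm heavy chain, was at 3.04 and 4.14 CPM in the controls, 1.501 and 2.86 at the low dose, and 3.73 and 3.38 at the high dose. For both genes the low dose libraries lay below all the others. Rfx3, a transcription factor of ciliogenesis, was at 45.3 and 54.4 CPM in the controls, 48.7 and 44.6 at the low dose, and 38.8 and 41.98 at the high dose. Tekt2, a tektin of the ciliary tubules, was at 3.20 and 3.38 CPM in the controls, 2.40 and 2.85 at the low dose, and 2.96 and 2.59 at the high dose.

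Of 17 genes of definitive endoderm, 15 were in the table, without Nepn and Pyy. None passed in limma after adjustment. Before it, 0 differed (p under 0.05) at the low dose against control, where 4.87% of all genes did. At the high dose against control 4 were lower and 0 higher, beside 1.64% and 3.65% of all genes. At the high against the low dose 7 were lower and 1 higher, beside 2.22% and 5.69%. Cer1, a secreted antagonist made in anterior endoderm of both origins, was at 115 and 140 CPM in the controls, 127 and 102 at the low dose, and 87.6 and 80.03 at the high dose. The high dose libraries lay below all the others, with a difference from control of -0.59 (SE 0.13, limma with Benjamini-Hochberg, adjusted p = 0.866). Mixl1, a homeobox factor of the streak cells that give endoderm and mesoderm, was at 42.3 and 54.6 CPM in the controls, 52.8 and 34.8 at the low dose, and 31.5 and 28.9 at the high dose. Eomes, the T-box factor upstream of endoderm formation, was at 128 and 176 CPM in the controls, 233 and 137 at the low dose, and 110 and 86.5 at the high dose. For Mixl1 and Eomes too the high dose libraries were the lowest of the 6. Gata6, which early endoderm shares with the visceral endoderm and heart mesoderm, was at 28.6 and 25.3 CPM in the controls, 23.8 and 23.6 at the low dose, and 27.4 and 27.8 at the high dose. Cldn6, an epithelial tight junction gene, was at 202 and 177 CPM in the controls, 213 and 200 at the low dose, and 201 and 189 at the high dose. The medians of the list were 0.04, -0.13 and -0.23 in the 3 comparisons. Epiblast markers moved the same way, with 7 of 7 lower at the high dose than in the controls (median -0.31), while 15 of 15 visceral endoderm markers were higher (median 0.51). The visceral endoderm sum of control library 1, 2878 CPM, lay between those of the high dose libraries, 2333 and 3119, and control library 2 was at 1415. None of these markers passed after adjustment, and their part in the values of the endoderm genes was not tested.

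Of 31 genes of the BMP pathway on which chordin and noggin act, 29 are described here. None passed in limma after adjustment. Without adjustment, 1 was lower (p under 0.05) and 0 higher at the low dose against control, beside 2.97% and 1.9% of all genes. At the high dose against control 5 were higher and 2 lower, beside 3.65% and 1.64%. Between the doses 2 were higher and 0 lower, beside 5.69% and 2.22%. By role, at the high dose against control 4 of 4 ligands (median 0.28) and 7 of 7 target genes (median 0.30) were higher, 1 of 6 receptors (median -0.08) and 1 of 6 secreted regulators (median -0.11) were higher, and the 6 Smads were divided evenly, with 3 higher. Over all genes 41.4% were lower in that comparison. Of the endothelium markers, 6 of 7 were higher in it (median 0.32). They summed to 54.3 to 71.6 CPM in the controls, 66.2 to 120 at the low dose and 71.6 to 93.1 at the high dose. The defining gene Sox18 was not in the table. Higher too were 15 of 15 visceral endoderm (median 0.51), 7 of 8 trophoblast (0.41) and 4 of 5 mesoderm markers (0.33). So were 4 of 7 parietal endoderm and 3 of 4 decidua markers. All 7 epiblast markers (median -0.31) and the 1 primitive blood marker were lower. The part of these markers was not tested. Fst, encoding follistatin, which binds activins and BMPs, was at 106.19 and 95.002 CPM in the controls, 82.4 and 83.3 at the low dose, and 81.6 and 76.5 at the high dose. Both dose groups lay below the controls, with differences of -0.28 (SE 0.07) and -0.34 (SE 0.07), with limma's Benjamini-Hochberg adjusted p of 0.928 and 0.866. Smad6, an inhibitory Smad, was at 11.1 and 9.28 CPM in the controls, 10.65 and 14.96 at the low dose, and 14.8 and 17.8 at the high dose. Id2, a direct target, was at 29.7 and 20.4 CPM in the controls, 18.6 and 25.8 at the low dose, and 32.4 and 42.5 at the high dose. The ligand gene Bmp5 was at 5.10 and 4.11 CPM in the controls, 2.50 and 4.50 at the low dose, and 5.29 and 8.71 at the high dose. For Id2 and Bmp5 both high dose libraries were the highest of the 6. Smad4, the Smad shared by the BMP and Nodal branches, was at 105 and 111 CPM in the controls, 99.27 and 101.3 at the low dose, and 96.3 and 101.6 at the high dose, with both dose groups below the controls.

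**Figure D3:**
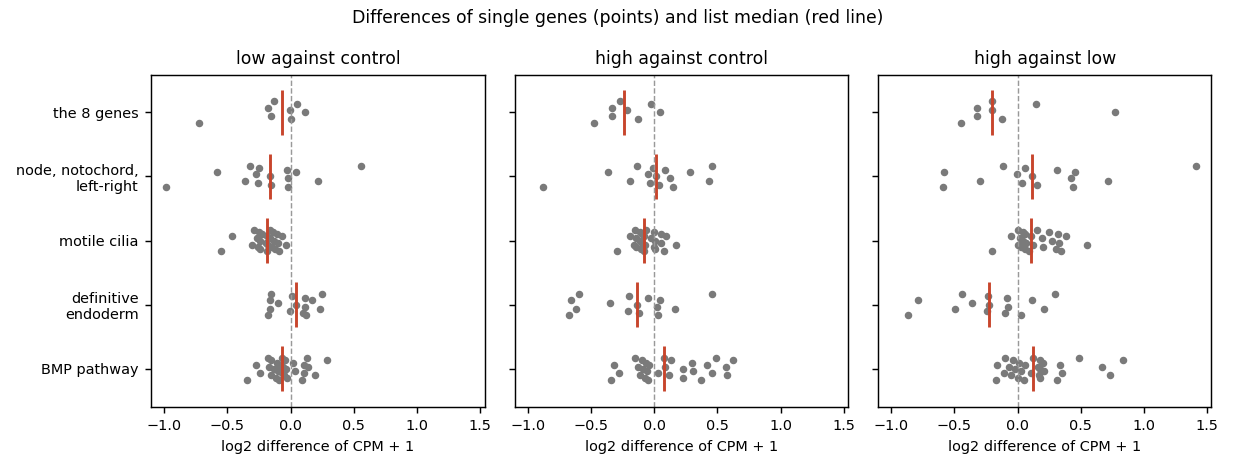
Difference of log2(CPM + 1) between dose groups (horizontal axes) for each gene (points) of the 8 genes and of 4 lists of related genes, with the list median in red and 0 as the dashed line. All 25 motile cilia genes lie left of 0 at the low dose against control. The medians of the 8 genes, of the motile cilia list and of the definitive endoderm list lie left of 0 at the high dose against control.

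The 89 tiles of the 8 genes were mostly weakly methylated. Their median was 10.1% over the 9 libraries, beside 9.95% for tiles in the windows of all genes tested and 20.5% for all tiles. Of the 89, 44 (49.4%) were under 10%, beside 50.1% of the tiles in gene windows. At or above 50% was 1 tile, beside 38.8% of all tiles, which include those far from genes. That share was not taken for tiles in gene windows alone. Foxa2, Sox17 and Hhex had 16 tiles each, Nog 13, Gsc 12, Chrd 8, Foxj1 7 and Noto 1. The depth behind each percentage is unknown. A tile's range over the 9 libraries had a median of 7.92 percentage points, and the range of its 3 group means a median of 1.95.

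Positions are given on mm10, with gene ends as the expression table lists them: Noto on chromosome 6 from 85423886 to 85428877, Foxj1 on chromosome 11 from 116330704 to 116335399, Sox17 on chromosome 1 from 4490931 to 4497354, Gsc on chromosome 12 from 104471209 to 104473330, Chrd on chromosome 16 from 20733127 to 20742384, Nog on chromosome 11 from 89300638 to 89302332, and Foxa2 on chromosome 2 from 148042877 to 148046969. A tile spans exons, introns or flanks alike, since no exon positions were used. Neighbouring tiles differed within several genes, with means of 61.8% and 20.8% in Foxj1 and 3.53% and 25.3% in Foxa2. The tiles of Hhex (chromosome 19, 37434810 to 37440731) ranged from a mean of 0.43% to 20.1%. Neighbouring tiles just before its start, at means of 10.1% and 0.56%, differed although both are dense in CpG, the dinucleotide that carries the methylation. They are printed 5′ to 3′ on the strand of the gene (plus for Hhex and Noto, minus for Foxa2), with CpG in capitals, from RefSeq promoters of build GRCm38.p6. A tile just upstream of Foxa2 and the promoter of Noto, which overlapped no tile, stand beside them for comparison.
Hhex, chr19:37434601-37434700: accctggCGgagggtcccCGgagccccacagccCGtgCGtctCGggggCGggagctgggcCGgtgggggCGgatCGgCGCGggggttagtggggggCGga
Hhex, chr19:37434701-37434800: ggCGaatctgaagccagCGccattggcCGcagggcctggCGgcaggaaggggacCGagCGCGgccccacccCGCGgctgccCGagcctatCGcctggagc
Foxa2, chr2:148047001-148047100: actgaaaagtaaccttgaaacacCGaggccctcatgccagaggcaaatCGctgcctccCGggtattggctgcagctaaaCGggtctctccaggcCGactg
Noto, chr6:85423636-85423885: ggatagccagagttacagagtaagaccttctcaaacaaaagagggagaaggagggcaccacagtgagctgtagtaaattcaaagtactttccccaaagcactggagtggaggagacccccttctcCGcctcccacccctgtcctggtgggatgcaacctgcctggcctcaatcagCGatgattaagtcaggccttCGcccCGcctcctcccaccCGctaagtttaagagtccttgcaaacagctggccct

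The first Hhex tile holds 12 CpG and 2 CCGG, the second 11 CpG and 0 CCGG, and the Foxa2 tile 5 CpG and 1 CCGG. CG and CCGG read the same on both strands, each CCGG contains a CG, and CCGG is the site at which reduced representation libraries are commonly cut. The 250 bases before the start hold 32 CpG for Hhex and 5 CpG and 0 CCGG for Noto. Like that of Noto, the windows of Chrd (28 CpG, 10 CCGG) and Gsc (22 CpG, 1 CCGG) overlapped no tile. Of the Foxa2 windows, that with 6 CpG and 1 CCGG overlapped 2 tiles, and those with 20 and 13 CpG overlapped 0. Over 32851 such RefSeq windows the median was 6 CpG, 4.58% held at least as many CpG as Hhex, 49.6% at most as many as Noto, and 47.1% held CCGG. Of the 8 genes, 5 matched a RefSeq promoter, and Sox17, Nog and Foxj1 did not.

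None of the 89 tiles passed in any comparison by limma on percent methylation after Benjamini-Hochberg adjustment over 141251 tiles, where 0% of all tiles passed in each. Before adjustment, 3 differed (p under 0.05) at the low dose against control (all higher), 1 at the high dose against control (lower) and 4 at the high against the low dose (1 higher, 3 lower). The shares of all tiles past that level were 5.49%, 4.44% and 4.71%. Tiles with groups that did not overlap numbered 7 higher and 1 lower at the low dose, beside 5.26% and 4.27% of all tiles, 6 and 5 at the high dose, beside 5.16% and 4.07%, and 4 and 7 between the doses, beside 4.8% and 4.76%.

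The first Hhex tile was methylated at 8.29%, 13.7% and 30.6% in the controls, 3.39%, 9.09% and 11.9% at the low dose, and 5.34%, 3.55% and 4.86% at the high dose. All 3 high dose libraries lay below all 3 controls, and control library 3 stood far above every other. The difference was -12.95 percentage points (SE 5.41, 95% interval -25.7 to -0.22, limma with Benjamini-Hochberg, adjusted p = 1), and -6.42 without control library 3. In the second Hhex tile, 100 bases on, no library exceeded 1.94% and 5 of the 9 were at 0%. The Foxa2 tile printed above was at 15.96%, 9.35% and 11.9% in the controls, 17.4%, 10.99% and 15.9% at the low dose, and 10.3%, 9.72% and 20.5% at the high dose, with all 3 groups overlapping.

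**Figure D4:**
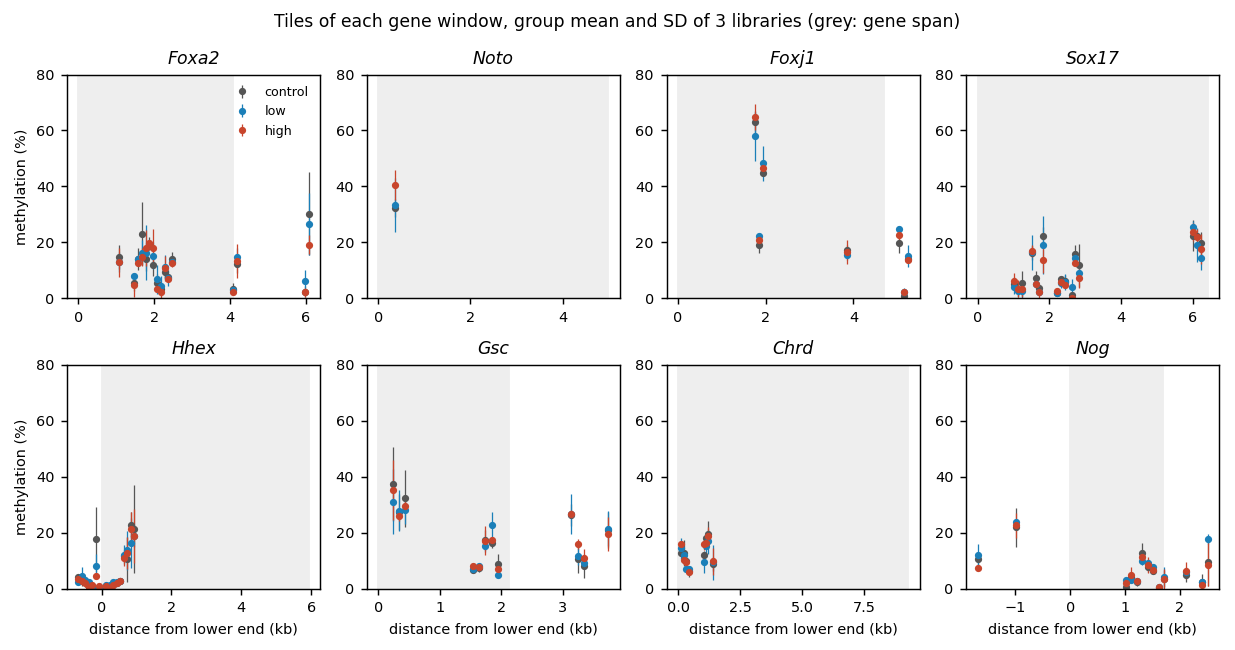
Methylation in percent (vertical axes) of the tiles of each gene against the distance of the tile's centre from the gene's lower coordinate end in kb (horizontal axes), as group mean with SD of 3 libraries, and the gene span in grey. The Hhex tile just left of its lower end shows a control mean of 17.5% beside 8.14% and 4.58% at the low and high dose, and its next neighbours lie near 0.

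In the other 7 genes the tile with the smallest unadjusted p was as follows. For Nog, at chr11:89301601-89301700 inside the gene, it was at 0.348%, 1.25% and 0% in the controls, 3.01%, 3.85% and 1.79% at the low dose, and 1.53%, 1.95% and 1.97% at the high dose. Both dose groups lay above all controls, by 2.35 percentage points at the low dose (SE 0.74, limma with Benjamini-Hochberg, adjusted p = 0.842). For Gsc, at chr12:104473001-104473100 inside the gene, it was at 17.1%, 14.4% and 17.9% in the controls, 28%, 20.2% and 19.8% at the low dose, and 17.5%, 17.9% and 16.5% at the high dose. The low dose libraries were the highest 3 of the 9, by 6.23 percentage points over control (SE 2.22, adjusted p = 0.879 by the same test). Without low dose library 1 the difference was 3.56, and the high dose libraries lay within the control range. The next tile, at chr12:104473101-104473200, went the other way. Its low dose values of 5.18%, 4.78% and 4.81% lay below the controls at 12.98%, 6.49% and 6.33%. Averaged over the tiles of Gsc, the low dose difference from control was -0.47 points. For Foxj1, at chr11:116335701-116335800 beyond its upper end, the low dose exceeded the controls by 5.14 points (SE 2.17), from 16%, 20.6% and 22.6% to 25.2%, 25.5% and 23.9%, and by 3.27 points without control library 1. The high dose libraries, at 19.1%, 25.9% and 22.5%, overlapped both.

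For Chrd, at chr16:20734101-20734200 inside the gene, the tile was at 11.4%, 11.1% and 13.5% in the controls, 8.33%, 13.5% and 6.09% at the low dose, and 17.9%, 15.3% and 14.1% at the high dose. The high dose lay above both other groups, by 6.44 points over the low dose (SE 2.01, limma with Benjamini-Hochberg, adjusted p = 0.983). For Sox17, at chr1:4493501-4493600 inside the gene, it was at 1.82%, 0.909% and 0.926% in the controls, 0.8%, 6.96% and 4.17% at the low dose, and 0.909%, 0% and 0% at the high dose. Low dose libraries 2 and 3 made up the difference of -3.67 points between the doses, which was -2.18 without low dose library 2. For Foxa2, at chr2:148048801-148048900 on the promoter side of the gene, the difference between the doses was -3.99 points with a 95% interval of -8.95 to 0.96, and -2.05 without low dose library 1. The single tile of Noto, at chr6:85424201-85424300 inside the gene, is described below as its gene mean.

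Averaged over the tiles of each gene, methylation differed between group means by 1.51 percentage points or less for every gene but Noto, and none of the 8 passed by limma after adjustment over 11901 genes, where 0% passed in each comparison. Without adjustment only Sox17 at the high dose against control was at p under 0.05. The shares of all genes at that level were 5.46%, 4.08% and 4.72% at the low dose, the high dose and between the doses. The Sox17 mean over 16 tiles was 10.97%, 10.56% and 10.55% in the controls, 8.67%, 9.35% and 10.51% at the low dose, and 9.27%, 9.74% and 8.55% at the high dose. All 6 libraries of the dose groups lay below all 3 controls, low dose library 3 only just. The differences from control were -1.19 points at the low dose (95% interval -2.53 to 0.16, and -0.76 without low dose library 1) and -1.51 at the high dose (SE 0.58, 95% interval -2.85 to -0.16, limma with Benjamini-Hochberg, adjusted p = 1). Sox17 expression overlapped between the same groups, and nothing in the columns matches libraries of one assay to those of the other.

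Noto, with 1 tile, was at 32.7%, 35.2% and 28.8% in the controls, 39.1%, 22.2% and 38.9% at the low dose, and 36.7%, 46.7% and 38.3% at the high dose. The high dose libraries lay above the controls, and the low dose libraries on both sides of them. The high dose difference was 8.30 points with a 95% interval of -2.66 to 19.3, and 5.24 without high dose library 2. Nog, over 13 tiles, was at 8.08%, 6.53% and 5.31% in the controls, 7.49%, 8.24% and 7.72% at the low dose, and 7.26%, 5.96% and 6.60% at the high dose. The high dose libraries lay below the low dose ones by -1.21 points (95% interval -2.91 to 0.49) and overlapped the controls. Hhex, over 16 tiles, was at 6.77%, 5.92% and 6.20% in the controls, 5.58%, 6.06% and 5.48% at the low dose, and 5.43%, 4.51% and 6.10% at the high dose, with overlap in every comparison. In all, groups did not overlap for Sox17 (lower) at the low dose against control, for Noto (higher) and Sox17 (lower) at the high dose against control, and for Nog (lower) between the doses. That is 0 higher and 1 lower, 1 and 1, and 0 and 1 of 8 genes, where 5.34% and 4.45%, 5.41% and 3.63%, and 5.18% and 4.39% of all genes were so placed.

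Foxa2, Foxj1, Gsc and Chrd overlapped in every comparison. Foxa2 ranged from 9.81% to 14.7% over the 9 libraries, with a high dose difference from control of -1.08 points (95% interval -3.95 to 1.78). Foxj1, which held the only tile above 50% (a mean of 61.8%), ranged from 24.1% to 29.1%, with a difference of 1.21 (-1.59 to 4.02). Gsc ranged from 15.6% to 21.8%, with a difference of 0.15 (-3.61 to 3.90), and Chrd from 8.84% to 13.6%, with a difference of 0.26 (-2.31 to 2.83).

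**Figure D5:**
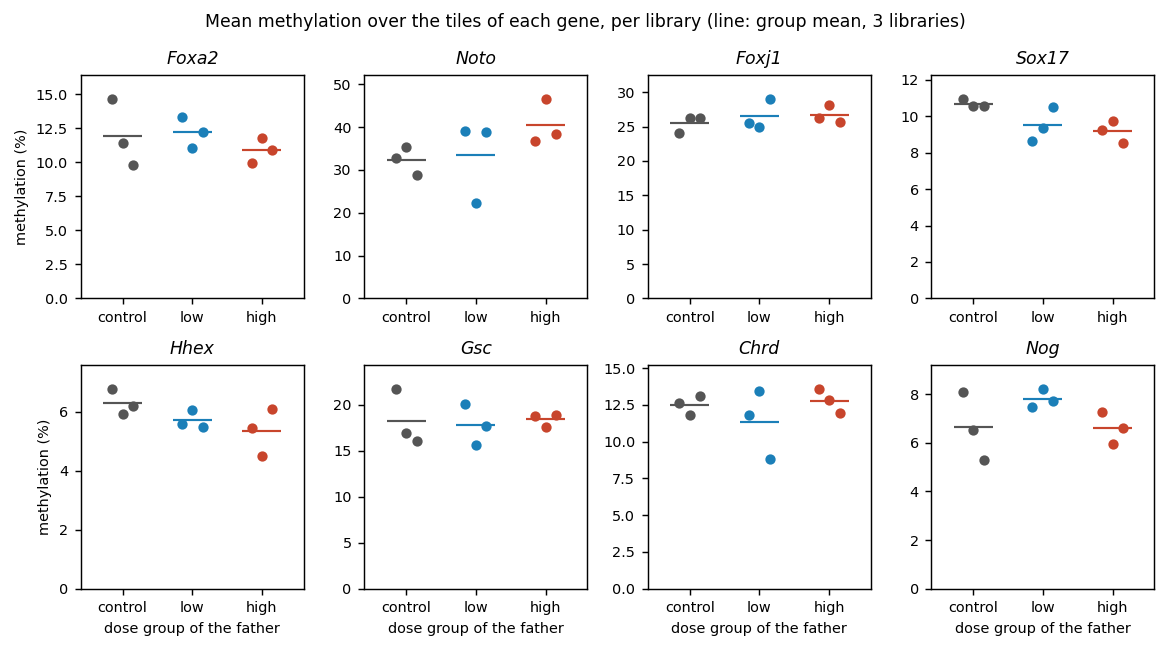
Mean methylation in percent (vertical axes, from 0) over the tiles of each of the 8 genes, in the 3 libraries of each dose group (points) with the group mean (lines). Sox17 lies lower in all 6 libraries of the dose groups than in the controls, and the other genes overlap between groups except Noto at the high dose against control and Nog between the doses.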

How the data were processed

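Per the submitters' processing notes, reads of the series were handled with TopHat, Bowtie 0.12.2 and Bowtie2, with Bismark, SAMtools and Trim Galore, and with methylKit and edgeR, and the builds named are mm8 and mm10. Which step used which is not given in the sources used here. Tile coordinates were checked against RefSeq promoters of GRCm38.p6 (mm10): 100% of 11776 tiles lying wholly inside a promoter window held a CpG, beside 83.5% to 85.5% of 577 to 727 tiles after shifts of 100000 or 500000 bases. The authors deposited gene expression as CPM and methylation as percent methylated per 100-base tile, without coverage. Lines of the expression table that name no gene were left out. A gene was tested if 2 or more of the libraries reached 1 CPM, which held for 12987 of 12988. Values were taken as log2(CPM + 1), and all 3 dose groups were fitted in limma 3.58.1 (R 4.3.3) with a mean-dependent prior variance. Percent methylation was fitted in limma per tile and per gene, as the unweighted mean over the tiles within 2 kb of the gene. Tests were two-sided with Benjamini-Hochberg adjustment over all features and a threshold of 0.05. The fits were tested on simulated data. No count test was run, since the values are CPM and it is not known whether their step is a read.

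Members and gene lists were chosen with earlier results of these data known. Named were all 8 genes, the 2 genes of each list with the smallest unadjusted p per comparison, the 2 genes most like each of the 8, and of the tiles the one with the smallest unadjusted p per gene. Of the markers, the highest gene is named where a summed level is given. The printed promoter tiles were chosen after their values were seen. Levels were not compared between genes, since no transcript lengths were used. Alternatives covered the pseudocount, the filter on low values, scaling, the tile window, the summary over tiles, the variance model and leaving out each library. Rescaling over genes only, and leaving libraries out of the cilia list, were added after the data had been seen.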

Additional observations from a re-analysis of the deposited data

How the results depend on the processing

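The count of the 8 genes, of their 89 tiles and of their 8 gene means past the adjusted threshold was 0 in all 3 comparisons under every alternative run. The planned edgeR test was not run. The CPM values are whole multiples of a step, but the smallest value of a column is 7 to 88 steps, and whether a step is a read is not known. Of the alternative expression differences 335 kept and 22 changed their sign, of the gene means 321 and 39, and of the named tiles 109 and none. Some alternatives cannot change a difference, and its sign is then kept by construction. These are the filter on low values, the variance model, and leaving out a library of a group outside the comparison. The numbers kept include such values, so they overstate how far the signs held. The named tiles were moreover picked for the smallest unadjusted p of their gene, which favours differences that keep their sign. Their count therefore cannot be set against that of the gene means. The cause of the changes of sign was not tested, and none of the values concerned passed. Expression of Sox17 at the low dose against control became -0.0063 with quantile normalization, -0.019 with columns rescaled to equal sums and -0.0053 rescaled over genes only. Gene means changed sign at the low dose against control for Noto with a 10 kb window (-0.35 points), Foxj1 over the gene alone (-0.033), Hhex on the log2 ratio scale (0.16) or by the median over tiles (0.73), and Gsc by the median (0.60). At the high dose against control they did so by the median for Foxa2 (0.41) and Hhex (0.34), over the gene alone for Gsc (-0.71), and for Nog on the log2 ratio scale (0.10), over the gene alone (0.33), with a 10 kb window (0.032) and by the median (0.37). Between the doses they did so for Foxj1 by the median (-1.29) and Hhex over the gene alone (0.0089).

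With 1 library left out at a time, expression differences at the low dose against control ranged from -0.40 to 0.051 for Noto, -0.10 to 0.085 for Foxj1, -0.11 to 0.11 for Sox17, -0.18 to 0.28 for Hhex, -0.55 to 0.24 for Gsc and -0.012 to 0.24 for Chrd. At the high dose against control they ranged from -0.24 to 0.19 for Noto, -0.43 to 0.0090 for Foxj1 and -0.36 to 0.45 for Nog. Between the doses they ranged from -0.077 to 0.38 for Noto, -0.43 to 0.018 for Foxj1 and -0.72 to 0.073 for Gsc. Gene means, in percentage points, ranged at the low dose against control from -0.84 to 1.596 for Foxa2, -1.70 to 6.72 for Noto, -0.22 to 1.82 for Foxj1, -1.61 to 1.28 for Gsc and -2.21 to 0.10 for Chrd. At the high dose against control they ranged from -2.16 to 0.28 for Foxa2, -0.96 to 1.90 for Gsc, -0.14 to 0.70 for Chrd and -0.70 to 0.68 for Nog. Between the doses they ranged from -0.61 to 1.44 for Foxj1, -0.74 to 0.18 for Sox17, -0.74 to 0.059 for Hhex and -0.48 to 1.76 for Gsc. Where a group was left with 1 library, that library is assumed to vary like the others. No paired analysis was possible because the columns' numbers are not tied to shared fathers, litters or batches. Tile coverage is unknown, so the precision of single percentages cannot be given.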

Other observations

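Among the markers of neighbouring tissues, the mesoderm gene Mesp1, a factor of the first cardiac progenitors, was at 31.1 and 33.2 CPM in the controls, 58.8 and 50.7 at the low dose, and 31.4 and 31.2 at the high dose. Both low dose libraries lay above the other four, with a difference from control of 0.75 on the log2(CPM + 1) scale (SE 0.08, 95% interval 0.55 to 0.94), which did not pass in limma after Benjamini-Hochberg adjustment (adjusted p = 0.254). Msgn1, a factor of the presomitic mesoderm, stood the other way at 11.2 and 8.07 CPM in the controls, 0.721 and 6.59 at the low dose, and 17.6 and 15.1 at the high dose, with its lowest value in low dose library 1, as for Noto, Nog and Shh. Esrrb, a trophoblast stem cell factor, was at 1.06 and 1.07 CPM in the controls, 3.17 and 0.747 at the low dose, and 7.02 and 5.77 at the high dose, where its difference from control was 1.84 (SE 0.35, adjusted p = 0.866 by the same test). The parietal endoderm marker Lama1 was at 230.7 CPM in control library 1 and at 49.0 in control library 2, so that the control libraries lay further apart for this gene than any pair of group means.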
